A study of Caenorhabditis elegans with 2 samples.

Results

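The genes described here were those annotated as small nucleolar RNA (snoRNA) or small nuclear RNA (snRNA) that had a candidate binding site of the homeobox protein CEH-82 beside their start. Members were chosen by 3 criteria. The gene had the biotype snoRNA or snRNA in the annotation of the Caenorhabditis elegans assembly WBcel235. Its name did not begin with sls-. The summit of at least 1 region of the pooled peak list lay between 1000 bp upstream and 200 bp downstream of its start. Of 445 such genes, 151 were members, or 33.9%, against 6257 of 46890 genes of all kinds, or 13.3%. The members were 136 of 346 snoRNA genes (39.3%) and 15 of 99 snRNA genes (15.2%). The pooled list itself chose the members, so these shares are a description.

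The study mapped the genomic sites of CEH-82 by chromatin immunoprecipitation with sequencing (ChIP-seq) in whole larvae at the L2 stage. The animals were of strain OP212, with genotype unc-119(ed3) III; ddEx58 and both sexes mixed. They carried CEH-82 fused to enhanced green fluorescent protein (eGFP) from a transgene, and the labels give neither its promoter nor the cells that expressed it. The 2 biological replicates formed the single group (n = 2), and no other stage, factor or untagged strain was compared. The labels do not say whether the replicates came from separate cultures. Whole animals were used, so a strong region in few cells and a weak region in many cells cannot be told apart, and peak lists hold no marker by which the labelled material could be checked. Each replicate list held 30000 regions, both replicates together gave 9070 pooled regions, and 537 of these (5.92%) passed the authors' threshold on the irreproducible discovery rate (IDR). Those 537 are called reproducible below, which refers to that threshold only. All 537 were the strongest of the pooled list by signal value, the score per region that the authors' caller gave, with no stated scale. Scores are therefore compared within a list only, and values from the replicate lists show the order of regions in each library. The lists hold no read counts, so the depth of each library is unknown.

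SnoRNAs guide chemical changes of ribosomal RNA in the nucleolus. The C/D class, named for its C and D boxes, directs ribose methylation, and the H/ACA class, which ends in an ACA box, directs the conversion of uridine to pseudouridine. SnRNAs form the core of the spliceosome, the machine that removes introns. In animals an snRNA gene has its own promoter, with an element just upstream of the start that recruits the snRNA activating protein complex, and U6 genes add a TATA box and are transcribed by RNA polymerase III. A snoRNA can have a promoter of its own or be cut from the intron of a host gene, often one for a ribosomal protein, in which case the host promoter makes it. A site beside a snoRNA gene may therefore belong to the snoRNA or to its host by position, and the members were divided on that basis below.

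Sequences are shown first for members whose summit lay by their own start, because 2 arrangements of short elements recurred just upstream of those starts. All were read from the WBcel235 genome from 90 bp upstream to 20 bases into the gene, 5′ to 3′ on the strand of the gene. The letters of both arrangements were chosen by reading the members' own sequences, after the data were seen. The first set carries an 18-base upstream element in capitals, made of CGNAACNC and, after 6 bases of any kind, TGTC. It holds R07E5.16 (chrIII:10989589-10989698, plus strand), ZK994.7 (chrV:8500489-8500598, plus strand), Y53F4B.47 (chrII:15025874-15025983, minus strand), sup-6 (chrII:12944948-12945057, minus strand), T06D8.11 (chrII:11224092-11224201, plus strand), F54D8.7 (chrIII:5080879-5080988, minus strand) and F01D5.12 (chrII:14018422-14018531, minus strand). The first 5 had a reproducible summit and the last pair did not.
R07E5.16: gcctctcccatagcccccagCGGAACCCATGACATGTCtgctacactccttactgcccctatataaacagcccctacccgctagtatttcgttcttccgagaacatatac
ZK994.7: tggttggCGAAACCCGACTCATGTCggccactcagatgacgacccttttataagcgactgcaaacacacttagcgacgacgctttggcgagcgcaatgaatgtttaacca
Y53F4B.47: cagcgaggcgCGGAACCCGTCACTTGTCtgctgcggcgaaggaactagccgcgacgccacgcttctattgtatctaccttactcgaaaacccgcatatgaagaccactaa
sup-6: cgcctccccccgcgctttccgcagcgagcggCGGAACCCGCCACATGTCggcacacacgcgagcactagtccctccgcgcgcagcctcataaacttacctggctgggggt
T06D8.11: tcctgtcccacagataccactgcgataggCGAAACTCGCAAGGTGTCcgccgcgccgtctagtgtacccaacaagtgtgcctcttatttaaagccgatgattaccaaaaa
F54D8.7: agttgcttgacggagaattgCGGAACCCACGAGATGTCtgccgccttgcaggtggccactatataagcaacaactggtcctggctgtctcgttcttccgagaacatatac
F01D5.12: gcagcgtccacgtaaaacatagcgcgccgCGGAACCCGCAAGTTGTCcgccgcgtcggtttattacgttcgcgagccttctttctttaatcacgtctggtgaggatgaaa

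The second set carries an A box, TGGCNNAG, followed by a B box, GTTCNANNC, both in capitals. In tRNA genes such boxes lie inside the gene and recruit factors of RNA polymerase III. The set holds T03F7.8 (chrV:11314168-11314277, plus strand) and F55A11.10 (chrV:11782902-11783011, plus strand), which had a reproducible summit, and W03C9.9 (chrII:11960808-11960917, plus strand) and Y43F8C.22 (chrV:19643168-19643277, minus strand), which did not.
T03F7.8: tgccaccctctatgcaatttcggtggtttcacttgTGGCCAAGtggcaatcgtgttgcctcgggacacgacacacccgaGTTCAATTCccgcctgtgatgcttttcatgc
F55A11.10: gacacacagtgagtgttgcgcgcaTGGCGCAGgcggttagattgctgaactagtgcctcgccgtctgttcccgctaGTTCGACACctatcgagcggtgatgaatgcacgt
W03C9.9: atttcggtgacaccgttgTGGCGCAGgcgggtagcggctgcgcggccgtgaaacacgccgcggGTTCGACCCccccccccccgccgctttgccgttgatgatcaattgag
Y43F8C.22: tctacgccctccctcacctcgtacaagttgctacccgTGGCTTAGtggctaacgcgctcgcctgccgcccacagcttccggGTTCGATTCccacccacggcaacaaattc

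Of the 151 members, 47 had a reproducible summit in the window, or 31.1% (exact 95% binomial interval 23.8% to 39.2%), against 781 of the 6257 genes of all kinds with a pooled summit there, or 12.5%. Among protein-coding genes the share was 507 of 3092 (16.4%), among tRNA genes 23 of 182 (12.6%) and among microRNA genes 9 of 47 (19.1%). Intervals cover counting error only, and no test was made, because the reproducible list is the strongest part of the list that chose the members and because members share regions. The 151 members lay at 143 regions, and the 47 at 40 of them. In the stronger 50% of the reproducible list were 25 of the 151 members (16.6%), against 6.71% of all genes with a pooled summit. The median signal value at the members was 14.5, against 9.71 over all genes with a pooled summit. The median GC content of the 201 bp around the summit was 46.3% at the members and 39.3% over all those genes. It was 48.8% at the 47 members with a reproducible summit and 44.8% at the other 104, and its part in the shares was not tested.

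The share was 43 of 121 (35.5%, interval 27.0% to 44.8%) at members inside a protein-coding gene or with a coding start within 1000 bp, and 4 of 30 (13.3%, 3.76% to 30.7%) at the independent ones. The value at independent members is near the 12.5% of all genes with a pooled summit. It also rests on where independence begins. It was 9 of 46 (19.6%) with the limit at 500 bp and 1 of 19 (5.26%) with the limit at 2000 bp. Among members near or inside coding genes the share was highest, at 23 of 50 (46%), where the gene was both inside a coding gene and near a coding start. It was 11 of 41 (26.8%) for genes deep inside a host, over 1000 bp from any coding start, and 9 of 30 (30%) for genes beside a coding gene and not in it. SnoRNA members reached 41 of 136 (30.1%, 22.6% to 38.6%) and snRNA members 6 of 15 (40%, 16.3% to 67.7%). The value for snRNA genes was lower in each library alone. With the 537 strongest regions of 1 library in place of the reproducible list, it was 3 of 15 (20%) in replicate 2 and 4 of 15 (26.7%) in replicate 1. Among snoRNA genes 37 of 108 near or inside coding genes (34.3%) and 4 of 28 independent ones (14.3%) had a reproducible summit, and among snRNA genes 6 of 13 near or inside coding genes (46.2%) and 0 of 2 independent ones, where 2 genes allow a share of up to 84.2% by the exact interval.

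**Figure D1:**
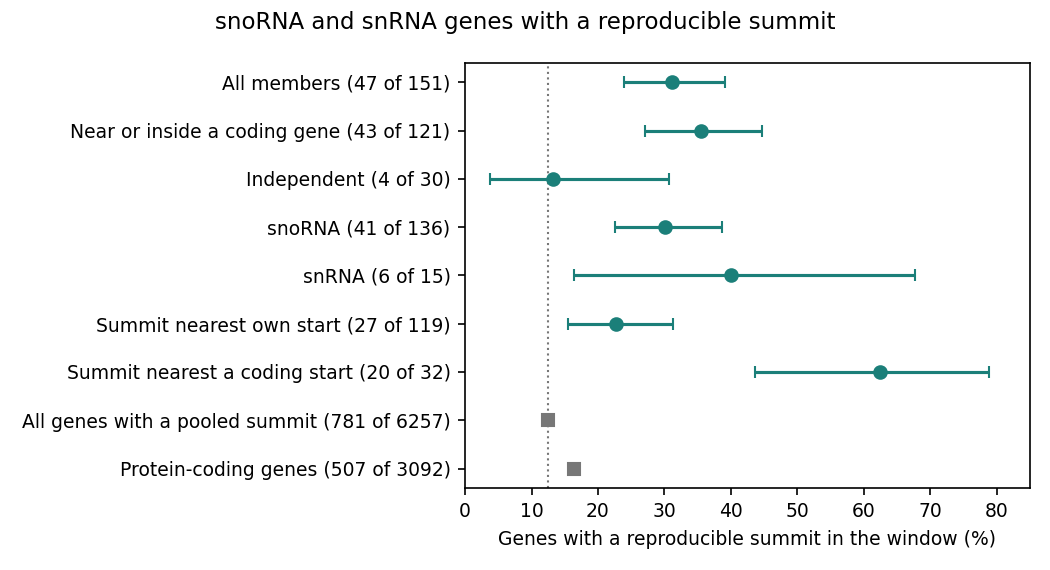
The horizontal axis gives the percentage of genes whose window held a reproducible summit, by class of gene, with the counts beside each class. Circles are classes of members with exact 95% binomial intervals, squares are all genes and all protein-coding genes with a pooled summit, and the dotted line marks the 12.5% of all genes with a pooled summit. Members with the summit nearest a coding start lie highest, at 62.5%, and independent members lie near the dotted line, at 13.3%.

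The position of the summit relative to the starts gave a second division of the members, which was added after the data were seen. At 119 members the strongest pooled summit was closer to the member's own start than to any coding start. Of these, 27 had a reproducible summit (22.7%, 15.5% to 31.3%), with a median signal value of 12.8 over the 119. Their summits lay at a median of -45 bp from the start, negative values being upstream, and 79 of 119 lay within 100 bp. At the other 32 members a coding start was closer. Of these, 20 had a reproducible summit (62.5%, 43.7% to 78.9%), with a median signal value of 24.3. Their summits lay at a median of -624 bp, with quartiles of -750.5 and -480.5 bp, and 0 of 32 lay within 100 bp of the snoRNA or snRNA start. The 32 members lay at 26 regions and the 20 at 15, so they are not independent sites, and the distances follow in part from the division itself. Over all genes with a pooled summit, the median distance was -265 bp. The GC content was 51.2% at the median of the 27 members with a reproducible summit by their own start and 43.3% at the 20 by a coding start.

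**Figure D2:**
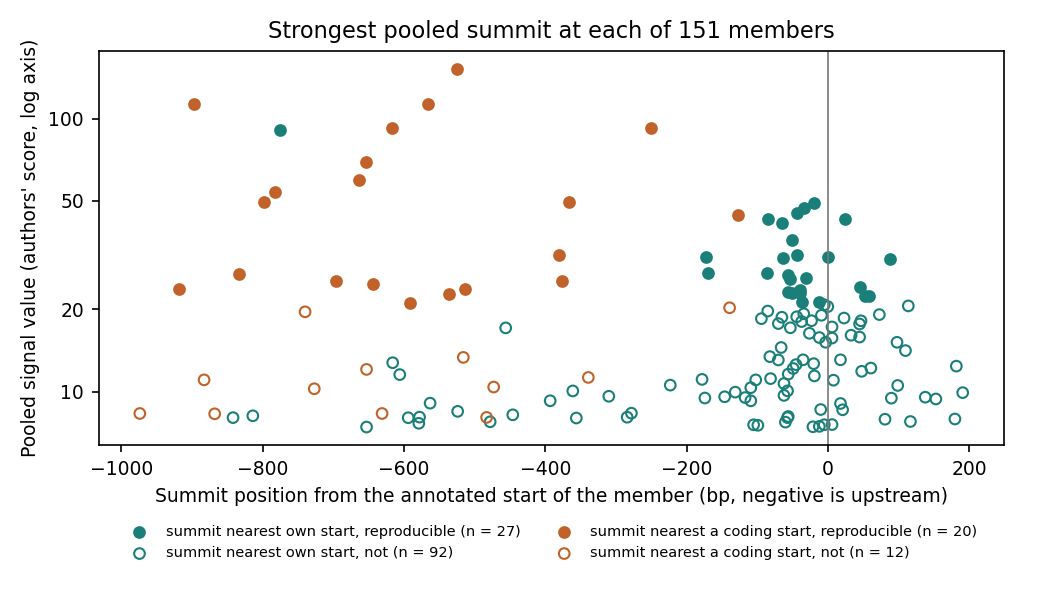
Each point is 1 of the 151 members, with the position of its strongest pooled summit in bp from its annotated start on the horizontal axis and the pooled signal value on a log axis. Filled points have a reproducible summit, and colours tell whether the member's own start or a coding start is nearest. Of the 27 filled points nearest their own start 24 lie within 100 bp of it, and all 20 filled points nearest a coding start lie upstream, at a median of -604 bp.

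The 3 regions with the highest signal values at members had a coding start nearest the summit, and the members there lay inside host genes. C06A1.9, a snoRNA gene in cdc-48.1, which encodes a AAA ATPase that extracts proteins from complexes and membranes, had the highest pooled signal value of any member, 153. The value was 37.7 in replicate 1 and 112 in replicate 2, where the region ranked 11 and 3. Its summit lay at -525 bp from the snoRNA start. K11H12.12 and K11H12.13 lie in introns of rpl-15, a gene for a protein of the large ribosomal subunit, and shared 1 region with a signal value of 114 (38.9 in replicate 1 and 73.6 in replicate 2). The summit was at -897 and -566 bp from their starts and at -351 bp from that of rpl-15. F54E7.10 and F54E7.11 lie in rps-12, which encodes a protein of the small subunit, and shared a region with a value of 92.8 (29.3 in replicate 1 and 61.6 in replicate 2). Both libraries placed these 3 regions among their 24 strongest.

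Further host genes of translation carried regions of lower signal value. F54C9.12, in the translation factor gene iff-2, had 69.2 (11.6 in replicate 1 and 54.8 in replicate 2). F28D1.13, in rps-23, had 59.4 (22.8 in replicate 1 and 31.7 in replicate 2). Y24D9A.9 and Y24D9A.10, in rpl-7A, shared a region with 49.6, and the sequence around its summit has a near-identical copy elsewhere in the genome. In replicate 1 these regions ranked 199, 38 and 122, and in replicate 2 they ranked 29, 85 and 68. Values between 21.1 and 31.8 were found at D1007.20 in rpl-24.1, at H06I04.8 and H06I04.9 in ubl-1, which encodes a ubiquitin-like protein fused to a ribosomal protein, at C16A3.11 in rps-13, at R151.11 and R151.12 in rpl-6 and at F53G12.12 in rpl-7. Hosts of other kinds were fbxl-2 with B0393.10 (53.7), tmem-107 with F39B2.14 (44.3), whose region also lay in the window of a ribosomal protein gene, and nap-1, a gene for a nucleosome assembly protein, with D2096.14 (22.8).

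In all, 16 members lay inside ribosomal protein genes, taken as those with names beginning rpl-, rps- or rla-. Of the 16, 12 had a reproducible summit, and the summit was nearest a coding start at all 16. Of the 20 members with a reproducible summit nearest a coding start, 19 lay inside a host, all 19 on its strand and 18 wholly in an intron. The nearest coding start was the host's own at 16. At F54E7.10 and F54E7.11 it was that of ska-3, on the other side of the region from rps-12, at 123 bp, and at C16A3.11 it was that of nfx-1, at 187 bp. The exception outside any host was ZK20.9, whose summit (26.9) lay at -834 bp from its start and 782 bp from that of din-1. Leaving out all regions at promoters of genes so named left 7 of 15 members with a reproducible summit in this class (46.7%) and 34 of 134 over all members (25.4%). The region at ubl-1 was kept, so H06I04.8 and H06I04.9 are among the 7. The share over all genes was not taken without those regions.

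The share of RNAs with a box match also differed by the nearest start, a division made after the data were seen. Some members by a coding start share a region, and 16 lay inside ribosomal protein genes, so these RNAs are not independent. The shares were not tested. An ACA within 2 to 4 bases of the 3′ end was present in 19 of the 31 snoRNA members whose summit was nearest a coding start (61.3%), in 22 of the 105 nearest their own start (21%) and in 34 of the 210 snoRNA genes without a pooled summit (16.2%). The same letters ended 4.45% of protein-coding genes. A C box GATGA in the first 30 bases with a D box CTGA in the last 25 was present in 3 of 31 (9.68%), 15 of 105 (14.3%) and 8 of 210 (3.81%) of the same 3 classes. Both searches read only the gene strand, and a gene without a match may carry its boxes at other positions or in other letters. The first pair of RNAs below has the C and D boxes in capitals, with the summit nearer the RNA's start than any coding start. Of this pair, C51F7.3 also lies in a host, frm-7, and shares its region with C51F7.4, whose start is nearer the summit. The second pair has the ACA in capitals, lies in hosts and has a coding start nearest the summit. They are C51F7.3 (chrV:12303708-12303783, plus strand), T06C12.16 (chrV:15873855-15873926, minus strand), C06A1.9 (chrII:10562952-10563064, minus strand) and K11H12.13 (chrIV:654229-654361, minus strand).
C51F7.3: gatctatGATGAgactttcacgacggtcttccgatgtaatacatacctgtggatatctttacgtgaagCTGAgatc
T06C12.16: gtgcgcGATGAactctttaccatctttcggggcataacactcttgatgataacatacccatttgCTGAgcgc
C06A1.9: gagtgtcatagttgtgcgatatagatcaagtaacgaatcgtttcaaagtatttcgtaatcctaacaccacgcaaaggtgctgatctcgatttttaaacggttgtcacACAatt
K11H12.13: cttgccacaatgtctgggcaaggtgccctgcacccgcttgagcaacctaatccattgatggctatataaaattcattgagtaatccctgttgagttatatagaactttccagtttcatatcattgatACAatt

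**Figure D3:**
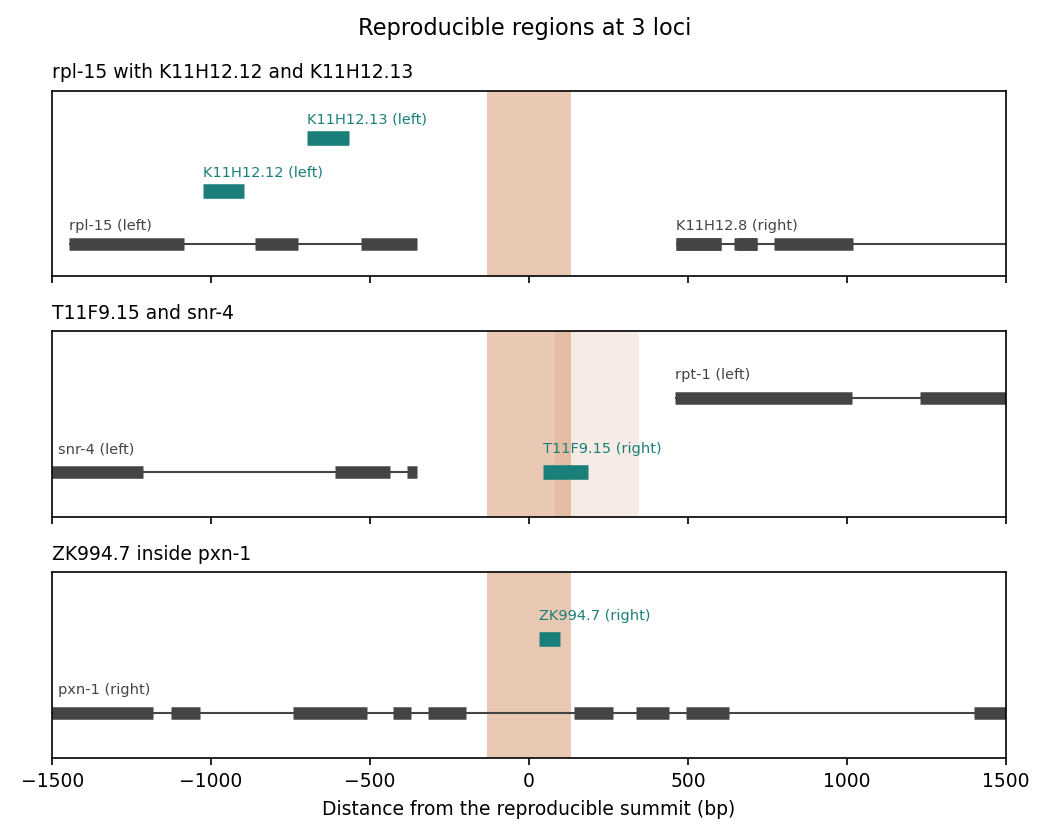
Maps of 3 loci, with distance in bp from the reproducible summit on the horizontal axis. Dark bars are exons of coding genes, green bars are snoRNA or snRNA genes, and each name is followed by the direction of transcription. The dark band is the reproducible region and the pale band in the second map a pooled region without reproducible status. The summit lies upstream of rpl-15 with its snoRNA genes farther downstream in the first map, between an snRNA gene and snr-4 in the second and within pxn-1 next to ZK994.7 in the third.

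All 6 snRNA members with a reproducible summit, at 5 regions, had it nearest their own start. R07E5.16 (WBGene00014543) had the highest signal value of an snRNA gene, 49.1 (16.8 in replicate 1 and 27.9 in replicate 2), with its summit at -19 bp. It lies inside dhc-4, a gene for a dynein heavy chain, with the nearest coding start 1806 bp away. The annotation gives the same name to a second gene (WBGene00014484) in mpc-1, which had 10.1 at -57 bp and no reproducible summit. The first 20 bases of R07E5.16 were shared by 18 annotated snRNA genes, of which 3 were members. The third was F54D8.7, with 19.3 at -34 bp, below the threshold. All 3 had a TATATAA between 45 and 15 bp upstream of the start, and 1 further member, M163.13, had it too. Both R07E5.16 (WBGene00014543) and F54D8.7 also carried the 18-base element shown above.

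T11F9.15 had the next highest value, 45.0 (12.9 in replicate 1 and 30.5 in replicate 2), with the summit at -44 bp. The same summit lay at -351 bp from the start of snr-4, which encodes a core Sm protein of the spliceosomal particles, on the other strand. The snRNA genes sup-6 and sup-39 are U1 genes that were named for mutations that suppress splicing defects. The signal value at sup-6 was 30.9 (14.5 in replicate 1 and 19.9 in replicate 2), with the summit at -64 bp. That at sup-39 was 22.4 (6.55 in replicate 1 and 13.4 in replicate 2), with the summit at 59 bp, inside the gene. The record mir-1831, annotated as snRNA, lies within sup-39 and shared its region, so the pair is 1 site. F38E11.11 had 23.5 (10.7 in replicate 1 and 10.6 in replicate 2) at -39 bp. Without the 3 names that are not usual snRNA names, sup-6, sup-39 and mir-1831, the share of snRNA members was 3 of 12 (25%). The 2 independent snRNA members were M163.13, with a value of 13.1 at -35 bp, and T08G5.11, with 12.4 at 182 bp, and neither had a reproducible summit.

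SnRNA genes exist in near-identical copies, which bears on how reads can be placed. At least 95% identity over 90% of the length elsewhere in the genome was found for 10 of 15 snRNA members (66.7%) and for 58 of 84 snRNA genes without a pooled summit (69%). For snoRNA genes the shares were 10 of 136 (7.35%) and 18 of 210 (8.57%). The windows of 201 bp around the summits were mostly single. Only 4 members had a near-identical copy of that window, 2 of them with a reproducible summit. Those 2 were the snoRNA genes Y24D9A.9 and Y24D9A.10, which share 1 region at rpl-7A. The others were the snoRNA gene F25H2.15 and the snRNA gene C47F8.9. How the authors treated reads that match several places is not given in the sources used here.

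Among snoRNA genes, 21 members at 20 regions had a reproducible summit nearest their own start. ZK994.7 lies in an intron of pxn-1, a peroxidasin gene, 5690 bp from the nearest coding start. Its signal value was 47.1 (10.8 in replicate 1 and 34.7 in replicate 2), with the summit at -33 bp. C51F7.3 and C51F7.4 lie side by side in frm-7 and shared 1 region with 43.0 (12.9 in replicate 1 and 30.4 in replicate 2). Its summit was 25 bp inside C51F7.4 and at -84 bp from C51F7.3. Y53F4B.47 had 41.6 (8.53 in replicate 1 and 35.5 in replicate 2) at -65 bp. F59C6.15 had 31.6 at -43 bp, Y37E3.20 had 31.2 at 0 bp and B0334.12 had 30.5 at 88 bp. The summits named so far in this paragraph lay within 100 bp of a snoRNA start. Those of M7.15 (31.0, at -173 bp), W06H8.17 (27.2, at -169 bp) and T27A8.8 (91.3, at -775 bp), also among the 21, did not.

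Of the 4 independent members with a reproducible summit, 2 had it within 100 bp of the start. T06C12.16 had 35.8 (5.94 in replicate 1, where it ranked 2271, and 29.4 in replicate 2, where it ranked 111) at -50 bp. T19B4.8 had 21.3 (6.84 in replicate 1 and 14.9 in replicate 2) at -36 bp. T27A8.8 had the highest value of the independent members, 91.3 (21.8 in replicate 1 and 72.0 in replicate 2), but the summit lay at -775 bp. It was also the only one of the 10 members on X with a reproducible summit. The counts were 7 of 30 on I, 10 of 31 on II, 9 of 23 on III, 10 of 29 on IV and 10 of 28 on V. Shares over all genes with a pooled summit were not taken by chromosome, so these counts show no trait of the members. Of the 10 members on X, 6 were independent. The fourth independent member with a reproducible summit was ZK20.9, described above.

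Of the 27 members with a reproducible summit by their own start, 15 lay inside a coding gene, 14 of them wholly in an intron and 13 on the strand of the host. Members in hosts were thus present in both positions, with the summit nearer a coding start or nearer the start of the snoRNA or snRNA gene. The 27 members lay at 25 reproducible regions. At the same time 13 coding genes had 1 of those regions in their own window, and none of the 13 had another reproducible region there. They include snr-4 (45.0, with T11F9.15), the cap methyltransferase gene cmtr-1 (41.6, with Y53F4B.47 at -65 bp and -156 bp from cmtr-1), let-70, a gene for a ubiquitin-conjugating enzyme, and klc-1, for a kinesin light chain (both 31.0, with M7.15), attf-2 (27.1, with F09G2.14), the glutathione transferase gene gst-27 (24.2, with Y53F4B.48) and the translation initiation factor gene eif-2Bgamma (22.4, with sup-39). By distance alone these regions lay nearer the snoRNA or snRNA gene than the coding gene, which is how they were selected.

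The 18-base element was searched on both strands from 250 bp upstream to 50 bp downstream of every gene start. It was found at 28 of 151 members (18.5%), against 170 of 46890 genes of all kinds (0.363%) and 21 of 19973 protein-coding genes (0.105%). All 28 matches were on the strand of the gene, with the first base between -83 and -57 bp and a median of -61 bp. All 28 were at members whose summit was nearest their own start (28 of 119, 23.5%), and 0 of the 32 members by a coding start had it. By class it was found at 7 of 15 snRNA members (46.7%) and 21 of 136 snoRNA members (15.4%). The snRNA records sup-39 and mir-1831 are both counted, although they overlap and carry the same copy of the element. Genes of the same biotypes without a pooled summit carried it at 17 of 84 (20.2%) for snRNA and 15 of 210 (7.14%) for snoRNA. Because the letters came from the members, neither their share nor its split by the nearest start is independent evidence.

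The pair of A and B boxes, with 20 to 70 bases between them, was found at 9 members (5.96%), against 104 of 46890 genes (0.222%). All 9 were snoRNA genes with the summit nearest their own start, and all 9 pairs were on the strand of the gene. The A box began between -72 and -50 bp. No member carried both arrangements, so 37 members had 1 or the other. Here too sup-39 and mir-1831 are both counted, although they share 1 element and 1 reproducible region. Of these 37, 12 had a reproducible summit (32.4%), with a median signal value of 18.5, and 31 had the summit within 100 bp of the start. Among the 82 other members whose summit was nearest their own start, 15 had a reproducible summit (18.3%), with a median signal value of 11.1. The letters were chosen by reading these same members, so setting the 37 beside the 82 is a description and not independent evidence. The median GC content was 49.8% at the 37 and 46.3% at the 82, and its part in the difference was not tested. A tRNA gene lay within 500 bp of the summit at 1 member, which had no reproducible summit.

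**Figure D4:**
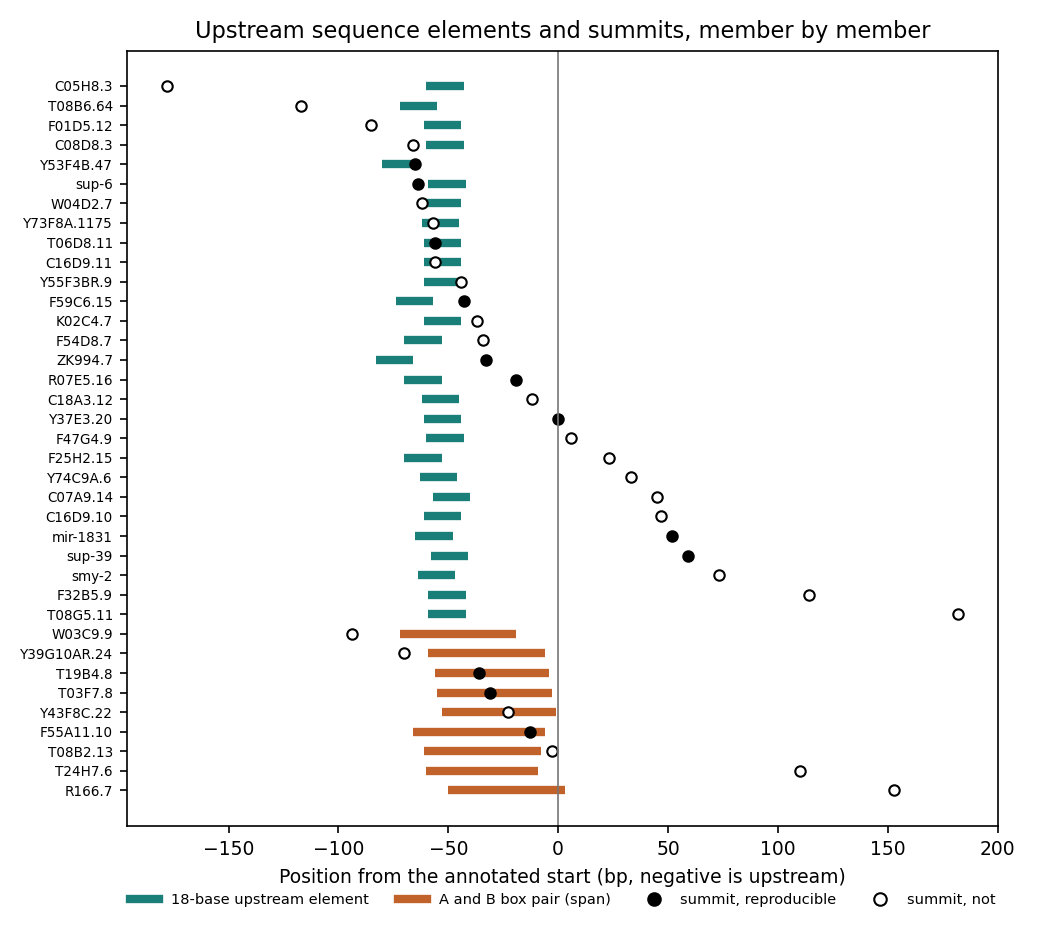
Each row is 1 of the 37 members with an upstream arrangement, and the horizontal axis is the position in bp from the annotated start. Green bars span the 18-base element, orange bars the pair of A and B boxes, and circles the strongest pooled summit, filled where it is reproducible. The green bars begin between -83 and -57 bp and 31 of the 37 summits lie within 100 bp of the start.

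Short motifs of homeodomain and other factors were searched in the same windows, on both strands, and their shares were not tested. The homeodomain core TAATTA was found at 12 members (7.95%), against 16.6% of all genes, and TAATTG at 16.6%, against 25.6%. The cut-like site ATCGAT was found at 12.6% of members, 9.16% of all genes and 12.3% of protein-coding genes. Among members with the summit nearest their own start, it was at 1 of the 27 with a reproducible summit (3.7%). It was at 12 of the 92 without one (13%). CACGTG was found at 3.97% of members and 4.14% of all genes, GAGAGAGA at 3.97% and 2.93%, and TATAAA at 29.8% and 37.4%. A missing match says only that the letters are not in this window. At the 32 members by a coding start the window mostly misses the summit, which lay at a median of -624 bp. The shares of all genes include genes without a pooled summit. Median GC content around the summit was 46.3% at members and 39.3% over all genes with a pooled summit. Its part in the motif shares was not tested.

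The replicate lists were compared at the members. A summit within 100 bp was found for 108 of the 151 members in the list of replicate 1 and for 131 in that of replicate 2. Of the 47 members with a reproducible summit, 46 were found in each list. W06H8.17 (27.2) had no match in replicate 2, and F55A11.10 (21.2) had none in replicate 1. Among the 537 strongest regions of a library were 31 of the 47 in replicate 1 and 41 in replicate 2, and 28 were so in both. Of the 20 with the summit nearest a coding start 14 were among the strongest in both, and of the 27 nearest their own start also 14. The 47 came from the list pooled from the same libraries, so these counts follow in part from that choice. Over all 151 members, the share with 1 of the 537 strongest summits of a library in the window was 25.2% in replicate 1 and 30.5% in replicate 2. Over all genes with a pooled summit it was 10.2% in replicate 1 and 11.7% in replicate 2. Over the 83 member regions in both lists, Pearson's r between the signal values was 0.88 and Spearman's rho was 0.74. Over all 3527 pooled regions in both lists they were 0.80 and 0.31. These coefficients are across regions of the same pair of libraries and were not tested. Reproducible regions, the strongest of the pooled list, were 40 of the 143 member regions and 537 of the 9070 pooled regions. The part of that difference in the coefficients was not tested, so they show no trait of the members.

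**Figure D5:**
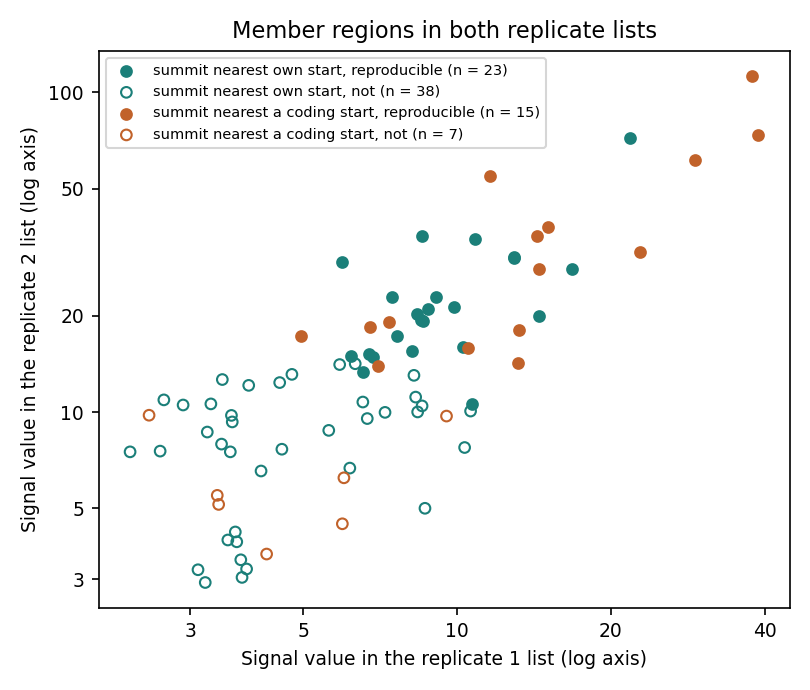
Each point is 1 of the 83 member regions with a summit in both replicate lists, with the signal value in replicate 1 on the horizontal axis and in replicate 2 on the vertical axis, both logarithmic. Filled points are reproducible regions, and colours tell whether the member's own start or a coding start is nearest. Regions that rank high in replicate 1 mostly rank high in replicate 2, with a Spearman's rho of 0.74 over the 83 regions.

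The thresholds that chose the members and their status were passed narrowly by a few. The weakest reproducible summits were at T19B4.8 (21.3), F55A11.10 (21.2) and F53G12.12 (21.1), and the strongest without that status were at Y75B12B.12 (20.8), F32B5.9 (20.6) and D1046.6 (20.5). At the upstream edge of the window the last members were K11H12.12 (-897 bp), R151.12 (-919 bp) and B0412.7 (-974 bp), and R12E2.17 (-1027 bp), F19H8.6 (-1028 bp) and F19H8.7 (-1041 bp) were just outside. At the downstream edge T19E7.29 (180 bp), T08G5.11 (182 bp) and W06A7.12 (191 bp) were inside, and F48A11.7 (211 bp), F29G9.19 (212 bp) and F25H2.14 (226 bp) outside. Only 9 members had more than 1 pooled summit in the window.

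Genes for the proteins that assemble with these RNAs or transcribe their genes were listed from textbook knowledge. The lists were drawn up with earlier results of these data known, so their shares are a description. Of 60 listed names 48 were in the annotation and 24 had a pooled summit in the window. Of those 24, 5 had a reproducible summit (20.8%), against 16.4% of protein-coding genes and 12.5% of genes of all kinds with a pooled summit. In the list of Sm, LSm and other snRNP proteins they were 2 of 11, snr-4 (45.0, at the region of T11F9.15) and snr-1 (31.9). In the C/D particle list it was 1 of 4, fib-1 (22.5), which encodes the methyltransferase fibrillarin, and in the H/ACA list 1 of 3, Y48A6B.3 (27.5). In the list for snRNA transcription it was 1 of 6, ints-4 (73.5), a subunit of the Integrator complex that cuts nascent snRNA. The gene nol-56, for a C/D particle protein, had no reproducible summit and hosts the snoRNA gene K07C5.11, which shared its region, with the summit at -197 bp from the start of nol-56.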

How the data were processed

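The samples were 2 ChIP-seq libraries of eGFP-tagged CEH-82, immunoprecipitated from whole L2 larvae. Per the deposited notes, regions came from the alignment of either replicate or of both, each set against a control alignment that was not analysed here, and the IDR list is part of the pooled one. No source used here gives the aligner, the caller, the IDR threshold or the handling of duplicate reads. Each region has a signal value, a score of unstated scale deposited by the authors. It also has a −log10 q-value deposited by the authors, from 2.46 to 2.93 in the IDR list. Lists on build ce11 were used, with Ensembl release 115 genes and RefSeq sequence of WBcel235, the same assembly.

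Summits were assigned to genes with Python 3.11.15, pandas 2.3.3, numpy 2.4.6 and scipy 1.17.1, and copies were sought with blastn 2.17.0. Coordinates are 1-based. "Inside" means wholly within a coding gene on either strand. Summits in 2 lists matched within 100 bp. Intervals are exact (Clopper-Pearson), and no test was run. The assignment was tested on simulated regions. Depth is unknown, since the lists give no counts. Other windows, limits, lists and libraries were tried as alternatives. The members and lists were chosen with earlier results of these data known. Named were the independent members with a reproducible summit, the 5 strongest of each class, those nearest the thresholds, listed genes with a reproducible summit and the coding genes that share these regions. Other members were named after their values were seen.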

Additional observations from a re-analysis of the deposited data

How the results depend on the processing

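Over 7 shares and the median summit distance, 88 values were recomputed with other settings. Of these, 80 moved by less than the counting interval of the main share or the spread of the distance between replicates, and 8 moved by more. Some of the 80 could not move, such as the share over all members under another limit for independence. The share at independent members ran from 5.26% to 19.6%, on both sides of the 12.5% of all genes with a pooled summit. That at snRNA members ran from 20% to 50%, within its wide interval of 16.3% to 67.7%. The median summit distance, -65 bp in the 1000 bp window, was -53 bp with a window of 500 bp upstream to 100 bp downstream and -267 bp with 2000 bp upstream, since the window bounds it. With 1 library left out it was -90 to -75 bp. Within the stronger 50% of the reproducible list, which holds fewer regions, the share was 16.6% over all members, 19% near or inside coding genes, 16.2% at snoRNA genes, 10.9% with the summit nearest the own start and 37.5% nearest a coding start. The same list held a summit of 6.71% of all genes with a pooled summit. With 1 library left out the shares were 25.2% to 30.5% over all members, 27.3% to 34.7% near or inside coding genes, 13.3% to 16.7% at independent members, 25% to 31.6% at snoRNA genes, 20% to 26.7% at snRNA genes, 18.5% to 23.5% nearest the own start and 50% to 56.2% nearest a coding start. No paired analysis was possible because both samples belong to 1 group. Unknown depth, unknown handling of repeated reads and 30 independent members limit the precision.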
